A study of Mus musculus with 384 samples.

Results

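Integrins and laminins are the proteins by which cells hold on to the basement membrane and to each other. Here 33 genes for their subunits, out of 22350 protein-coding genes on chromosomes 1 to 19 and X, were examined for accessible chromatin in cells of a mouse breast tumor. They were taken by name and sorted by known role into 7 leukocyte integrins, 6 epithelial integrins, 11 integrins of other or broad expression and 9 laminins, by a rule that uses no measured value, although earlier results of these data were known when they were chosen. The single cells came from 1 tumor of an MMTV-PyMT mouse, sacrificed at 3 months of age, in which the PyMT oncogene is driven by the MMTV promoter, which is active mainly in mammary epithelial cells. After staining for EpCAM and CD45 they were sorted into 4 plates of 96 wells for Pi-ATAC, which reads transposase-accessible DNA in a cell whose protein staining was recorded. The labels put every well in 1 group and name no stain result for a single well, and the processed data were 1 list of 50000 windows of 500 bp, called on the pooled cells in mouse build mm9. The list gave positions only, with neither score nor read count, so depth was unknown, no replicate existed and no test between groups was possible.

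An integrin is a pair of 1 alpha and 1 beta subunit that spans the cell membrane and binds matrix or another cell outside. Inside, it joins the actin skeleton through adaptors such as talin and kindlin, or the keratin skeleton through linkers of hemidesmosomes. Leukocytes use pairs built on Itgb2 or Itgb7 to leave vessels and to touch other cells, while epithelial cells use pairs with Itgb1 and Itgb4 to sit on the basement membrane. A laminin is a cross-shaped trimer of 1 alpha, 1 beta and 1 gamma chain and is the main ligand of those epithelial receptors. Because EpCAM marks epithelial cells and CD45 marks leukocytes, both kinds of gene were of interest in the same pooled list. The paper reports near-equal numbers of EpCAM+ and CD45+ cells after its filter. The list does not give the cells behind a window, so accessibility in a small subset of cells and less accessible DNA per cell cannot be told apart.

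A window was counted at a promoter when its centre lay within 1 kb of any annotated start site of the gene, and around the gene when it lay within 50 kb. Of the 33 genes, 15 (45.5%, exact Clopper-Pearson 95% interval 28.1% to 63.6%) had a promoter window, and the background over all 22350 protein-coding genes was 43.5%. The share was 1 of 7 leukocyte integrins (14.3%, 0.361% to 57.9%), 4 of 6 epithelial integrins (66.7%, 22.3% to 95.7%), 5 of 11 other integrins (45.5%, 16.7% to 76.6%) and 5 of 9 laminins (55.6%, 21.2% to 86.3%). These intervals cover counting error only. All 4 overlapped one another and held the background share, so the groups were not separated at this number of genes.

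The sequence next to the start sites is shown first for the most window-rich gene or pair of genes of each group that had a promoter window, because its CpG content is set beside that of all genes next. Each line is a stretch of 150 bases from inside the window, outside annotated exons, read 5′ to 3′ on the strand of the gene in mm9, with every CpG dinucleotide in capitals. The stretches lie at chr2:79095433-79095582 on the plus strand for Itga4, chr13:115722250-115722399 on the minus strand for Itga2, chr11:94938116-94938265 on the minus strand for Itga3, chr8:131209404-131209553 on the plus strand for Itgb1, chr2:83564404-83564553 on the plus strand for Itgav, chr2:179960565-179960714 on the minus strand for Lama5 and chr1:195127713-195127862 on the plus strand for Lamb3. For 6 of the genes the stretch ended 1 base before a start site. That of Lamb3 ran from 0.438 to 0.289 kb before it, and for Itga4 the window closest to a start site lay within annotated exons, so the next one is shown.
Itga4: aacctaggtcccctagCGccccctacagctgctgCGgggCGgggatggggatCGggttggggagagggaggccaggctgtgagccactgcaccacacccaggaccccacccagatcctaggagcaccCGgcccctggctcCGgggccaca
Itga2: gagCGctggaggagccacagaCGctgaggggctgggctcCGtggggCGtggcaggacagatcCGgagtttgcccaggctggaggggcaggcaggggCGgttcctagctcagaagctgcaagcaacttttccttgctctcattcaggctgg
Itga3: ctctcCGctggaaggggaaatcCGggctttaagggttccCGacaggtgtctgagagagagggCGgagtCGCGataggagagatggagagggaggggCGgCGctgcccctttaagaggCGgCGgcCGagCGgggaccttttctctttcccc
Itgb1: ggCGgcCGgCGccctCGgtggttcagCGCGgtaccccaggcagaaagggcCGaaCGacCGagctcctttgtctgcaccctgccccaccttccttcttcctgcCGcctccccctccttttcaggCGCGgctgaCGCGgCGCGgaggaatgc
Itgav: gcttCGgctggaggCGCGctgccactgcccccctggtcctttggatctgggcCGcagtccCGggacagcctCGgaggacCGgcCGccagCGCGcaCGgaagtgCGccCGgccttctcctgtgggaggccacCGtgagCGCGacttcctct
Lama5: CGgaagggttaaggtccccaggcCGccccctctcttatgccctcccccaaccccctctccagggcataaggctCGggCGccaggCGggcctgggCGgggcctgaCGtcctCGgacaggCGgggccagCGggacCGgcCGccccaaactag
Lamb3: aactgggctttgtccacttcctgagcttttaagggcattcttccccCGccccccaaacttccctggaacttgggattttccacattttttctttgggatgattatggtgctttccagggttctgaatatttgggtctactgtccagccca
The stretches of Itgb1 and Itgav each held 16 CpG, those of Itga3 and Lama5 each held 12, and those of Itga2 and Itga4 each held 6. The Lamb3 stretch held 1.

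Of the leukocyte integrins without a promoter window, 3 are shown for contrast and were chosen after their values were seen. The lines give the 150 bases that end 1 base before the first start site, at chr7:134439624-134439773 on the plus strand for Itgal, chr10:76992847-76992996 on the plus strand for Itgb2 and chr15:102062367-102062516 on the minus strand for Itgb7, marked in the same way.
Itgal: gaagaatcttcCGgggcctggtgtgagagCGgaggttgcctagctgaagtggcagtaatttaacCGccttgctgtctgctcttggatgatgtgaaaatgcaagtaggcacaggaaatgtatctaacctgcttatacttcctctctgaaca
Itgb2: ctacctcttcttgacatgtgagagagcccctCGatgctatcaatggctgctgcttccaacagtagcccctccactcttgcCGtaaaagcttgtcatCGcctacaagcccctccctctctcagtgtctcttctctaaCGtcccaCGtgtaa
Itgb7: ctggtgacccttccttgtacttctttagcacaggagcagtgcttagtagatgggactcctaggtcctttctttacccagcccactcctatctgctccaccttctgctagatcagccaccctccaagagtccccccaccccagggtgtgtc
Here 3, 5 and 0 CpG stood in the stretches of Itgal, Itgb2 and Itgb7.

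CpG content near the start sites was then counted for all genes, as the number of CpG within 500 bp to either side of the most CpG-rich start site of the gene. The median was 15 for leukocyte integrins, with a range of 11 to 45, against 62 for epithelial integrins, 61 for other integrins, 48 for laminins and 47 for all protein-coding genes. All protein-coding genes were cut into 10 classes of near-equal size by this count, and the share with a promoter window rose from 1.86% in the lowest class to 71.7% in the highest. Among the 11 members in the lowest 4 classes, which had at most 31 CpG, only Lamb3 had a promoter window (9.09%, against 10.7% of 8914 genes in the same classes). In the upper 6 classes 14 of 22 members had one (63.6%), beside 65.2% of 13436 genes. The mean of the class shares was 19.9% for the leukocyte integrins, 57.6% for epithelial integrins, 59.5% for other integrins and 49.4% for laminins, each inside the interval of the observed share.

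**Figure D1:**
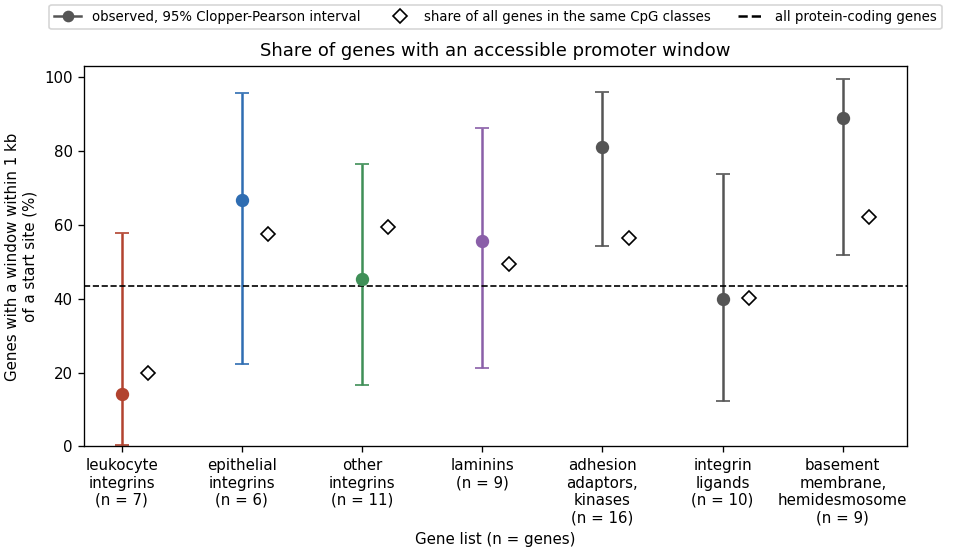
Share of genes whose start sites had a window at 1 kb or less (vertical axis, %) for the 4 member groups and 3 other lists of the adhesion pathway (horizontal axis). Circles with bars are observed shares with exact 95% intervals, diamonds are the mean share of all genes in the same CpG classes, and the dashed line is the 43.5% of all protein-coding genes. Leukocyte integrins sit lowest at 14.3%, beside a diamond at 19.9%.

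Windows within 50 kb were counted for each gene, from 1 for Itgb6, Itga10, Lama2 and Lama4 to 10 for Itgb1. Every member had at least 1, while 3439 of all protein-coding genes had 0. Members had a median of 5 windows and a mean of 5.27 (exact Poisson 95% interval 4.52 to 6.12), and all genes a median of 3 and a mean of 4.10. With 5 or more windows there were 21 of 33 members, where the background was 36.1% of all genes, namely 5 leukocyte integrins, 4 epithelial integrins, 7 other integrins and 5 laminins. Group means were 5.71 (4.08 to 7.78) for leukocyte integrins, 5.17 (3.51 to 7.33) for epithelial integrins, 5.55 (4.24 to 7.12) for other integrins and 4.67 (3.36 to 6.31) for laminins, and their intervals overlapped.

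Members are also long genes with several start sites, which widens the 50 kb reach. Their median length was 62.4 kb, against 15.4 kb over all genes, and their median number of start sites was 4, against 2. The mean for all genes in the same length classes was 4.41 windows, just below the members' interval of 4.52 to 6.12. The Poisson intervals cover counting error only and leave out the spread between genes. They also count 3 windows shared by Itgam and Itgax for both genes. The difference from genes of like length was therefore not tested. Per 100 kb of reach the members held 3.83 windows, all genes 3.57, leukocyte integrins 5.21, other integrins 3.98, epithelial integrins 3.92 and laminins 2.90. The windows were not all next to the gene itself. There were 37 distinct windows around leukocyte integrins, 31 around epithelial integrins, 61 around other integrins and 42 around laminins. Of all these, 92 had a member's start site as the nearest among those of protein-coding genes, which is the sense of nearest, nearer and own from here on, 23 lay at a member's promoter and 41 lay at promoters of other genes. By place, 64 were at promoters (37.4%), 7 in exons (4.09%), 61 in introns (35.7%) and 39 between genes (22.8%), beside 35.0%, 4.48%, 35.6% and 25.0% of the 37430 windows within 50 kb of any protein-coding gene.

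**Figure D2:**
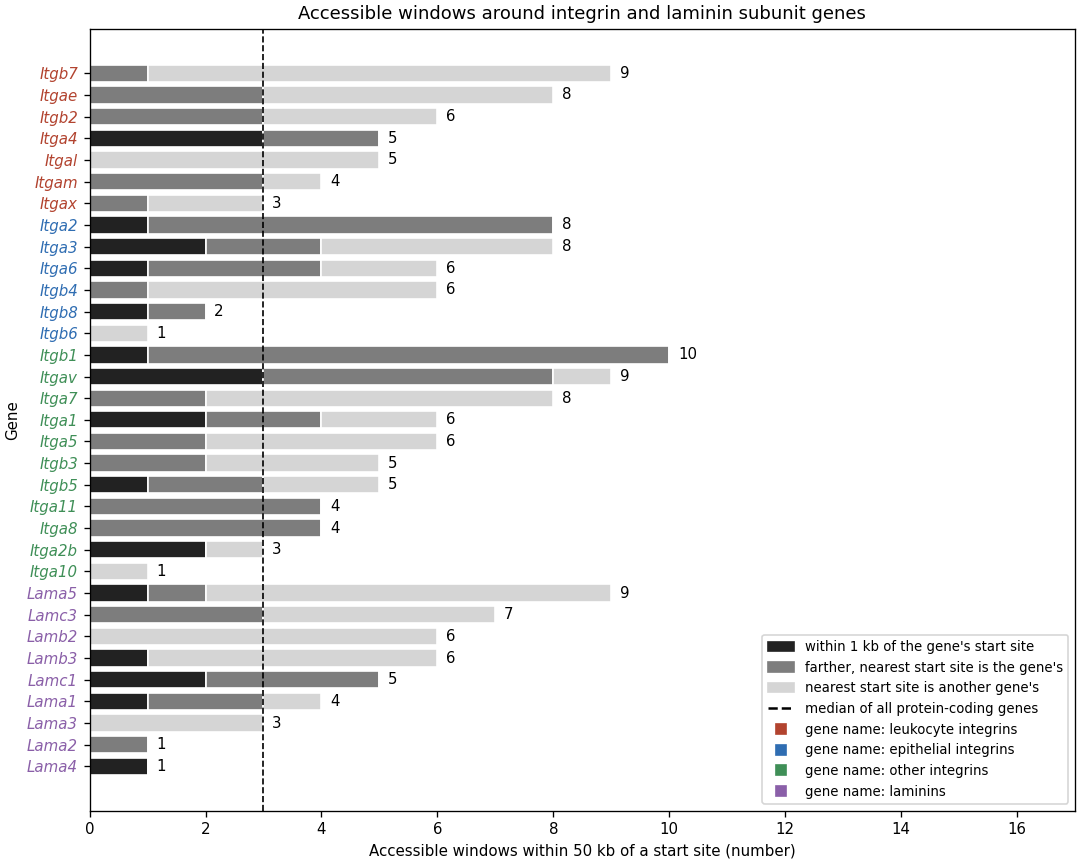
Windows at 50 kb or less from the start sites (horizontal axis, number) for each of the 33 genes (vertical axis, names coloured by group). Bars split into windows within 1 kb of the gene's start site (black), farther windows whose nearest start site is the gene's (grey) and windows nearer to another gene (light grey), and the dashed line marks the median of 3 over all protein-coding genes. Nearest is taken among protein-coding genes. Itgb1 has the longest bar with 10 windows, of which 1 lies at the promoter of an annotated gene that is not protein coding.

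Leukocyte integrins had windows in their introns and upstream, and Itga4 was the only one with windows at its promoter. Itga4, the alpha subunit that pairs with Itgb1 or Itgb7 to bind VCAM1, had 5 windows, of which 3 lay at its promoter and the others 28.3 and 33.8 kb upstream. The closest was chr2:79095812-79096311, centred 42 bp before a start site. Itgb2, the beta subunit shared by the integrins of Itgal, Itgam and Itgax, had 6 windows, and 3 of them stood in its introns at 6.44, 14.6 and 22.7 kb past a start site. Itgae, the subunit that pairs with Itgb7 to bind E-cadherin, had 8 windows, with 5 in its introns from 2.56 to 38.0 kb past the start site. These 5 formed a run inside the gene, though the last pair were nearer to Gsg2.

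Itgam and Itgax, the alpha subunits used as surface markers of myeloid and dendritic cells, are neighbours on chromosome 7 and shared 3 windows. For Itgam 4 windows were counted, with the closest in an intron 2.78 kb past an internal start site, which is 53.8 kb from the first one. For Itgax 3 windows were counted, and the closest stood in an intron 1.45 kb past a start site, just outside the promoter limit. Itgal, the alpha subunit of the lymphocyte integrin LFA-1, had 5 windows, all upstream from 11.1 to 22.6 kb and all nearer to the start sites of Sephs2 or Gm17511. Itgb7 had 9 windows, the most in the group, but 6 were at promoters of other genes, including Rarg, Zfp740 and Mfsd5, and 1 was its own, in an intron 6.46 kb past the start site.

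Epithelial integrins had promoter windows at Itga2, Itga3, Itga6 and Itgb8. Itga2, the alpha subunit of a collagen receptor, had 8 windows, all nearest to its own start sites, with 1 at the promoter (chr13:115721940-115722439, 59 bp past the start site) and 4 more along its introns out to 44.5 kb. Itga3, the alpha subunit of a laminin receptor, also had 8, with 2 at its promoter, of which chr11:94937797-94938296 was centred 19 bp before a start site, and 2 at the promoter of Pdk2. Itga6, which pairs with Itgb4 in hemidesmosomes, had 6 windows. Its promoter window, chr2:71624968-71625467, lay 78 bp past an internal protein-coding start site 41.5 kb from the first one, and no window was closer than 21.7 kb to the first. Itgb8, a partner of Itgav in the activation of TGF-beta, had 2 windows within 50 kb, with chr12:120476968-120477467 centred 25 bp past a start site.

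Itgb4 and Itgb6 had no promoter window. Itgb4 had 75 CpG near its start sites and 6 windows around it, but 4 were at the promoters of Recql5, Sap30bp, H3f3b and Unk, and its own closest window lay 5.29 kb upstream. Inside the gene there were 0. Itgb6, the other epithelial partner of Itgav, had 1 window, 25.2 kb upstream and nearer to Rbms1. Over the 6 epithelial integrins the windows of their own ran from 0 for Itgb6, 1 for Itgb4 and 2 for Itgb8 to 4 for Itga3 and Itga6 and 8 for Itga2.

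**Figure D3:**
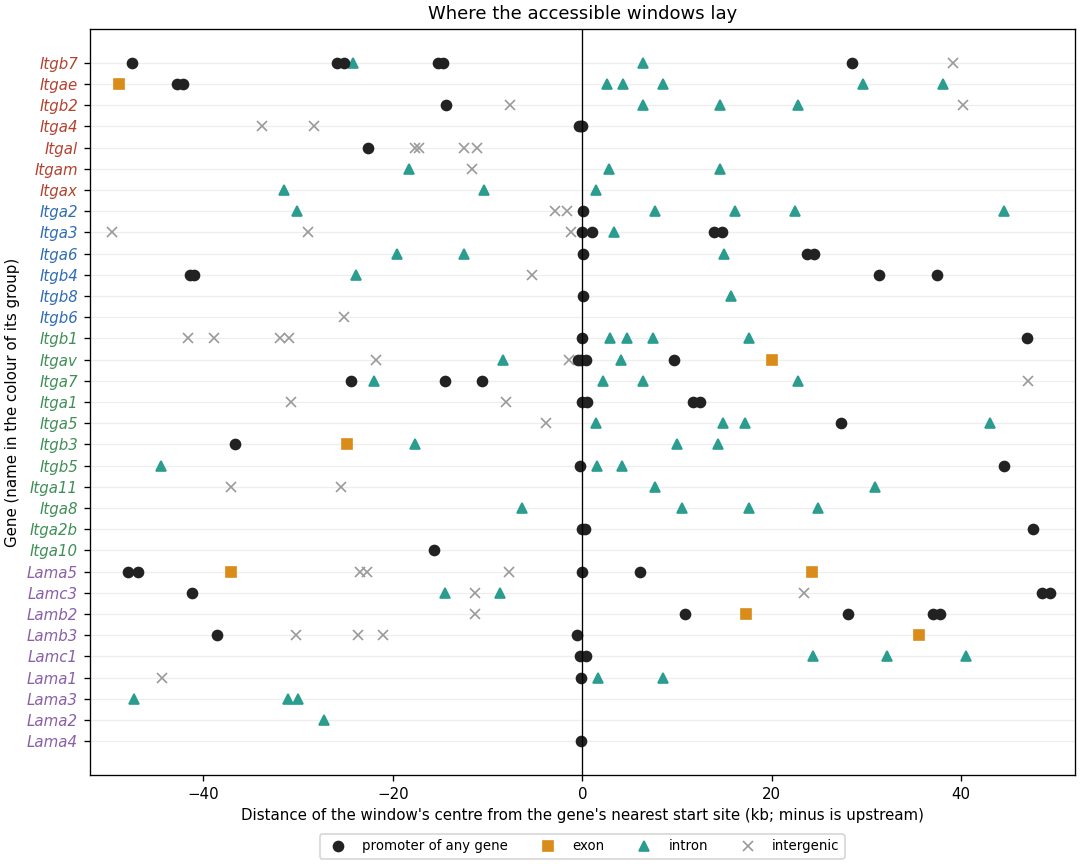
Position of each window within 50 kb (horizontal axis, kb from the nearest start site of the gene, minus upstream) for the 33 genes (vertical axis). Black circles are windows at a promoter of any gene, orange squares in exons, green triangles in introns and grey crosses between genes. Circles at 0 mark the 15 genes with a promoter window, and the row of Itgae shows 5 intron windows past the start site.

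Other integrins ranged from 1 window for Itga10 to 10 for Itgb1, and Itgav with 9 was level with Itgb7 and Lama5. Itgb1, the beta subunit with the most alpha partners, had 10 windows, and 90.8% of protein-coding genes had fewer. Its promoter window was chr8:131209249-131209748, 55 bp before the start site, 4 windows stood in introns, and 4 formed an upstream group from 31.0 to 41.6 kb. Itgav, which pairs with several beta subunits to bind vitronectin and fibronectin, had 9 windows, of which 8 were its own and 3 lay at its promoters. Among them chr2:83564117-83564616 was 0.187 kb before the first start site, and another was 0.404 kb before an internal one. Itga1, the alpha subunit of a collagen receptor whose gene neighbours Itga2, had 6 windows, with 2 at its promoter, the closer of which, chr13:115891910-115892409, was 12 bp past the start site, and 2 at the promoter of Pelo, which lies within it.

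For 2 further integrins the promoter call rested on internal start sites of transcripts not annotated as protein coding. Itga2b, the platelet fibrinogen receptor subunit, had windows 44 bp before and 0.235 kb past such sites (the first at chr11:102328307-102328806), and no window closer than 2.88 kb to its first start site. Itgb5, another partner of Itgav, had chr16:33891498-33891997 centred 0.285 kb before a site 62.3 kb inside the gene. The closest window to its first start site was 4.16 kb away.

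Itga5, the alpha subunit of the main fibronectin receptor, missed the promoter limit with a window 1.40 kb past its start site, and had 6 windows in all. Itga7, a laminin receptor subunit of muscle, had 8 windows, the closest 2.18 kb past its start site, and 3 were at the promoters of Cd63, Rdh5 and Bloc1s1. Itgb3, the partner of Itga2b and Itgav, had 5 windows and the closest 10.0 kb away. Itga8 had 4 windows, all in its own introns, and Itga11, a collagen receptor subunit of fibroblasts, had 4 of its own, the closest 7.71 kb past a start site. Itga10, the collagen receptor subunit of cartilage, had 1 window, at the promoter of Rbm8a.

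**Figure D4:**
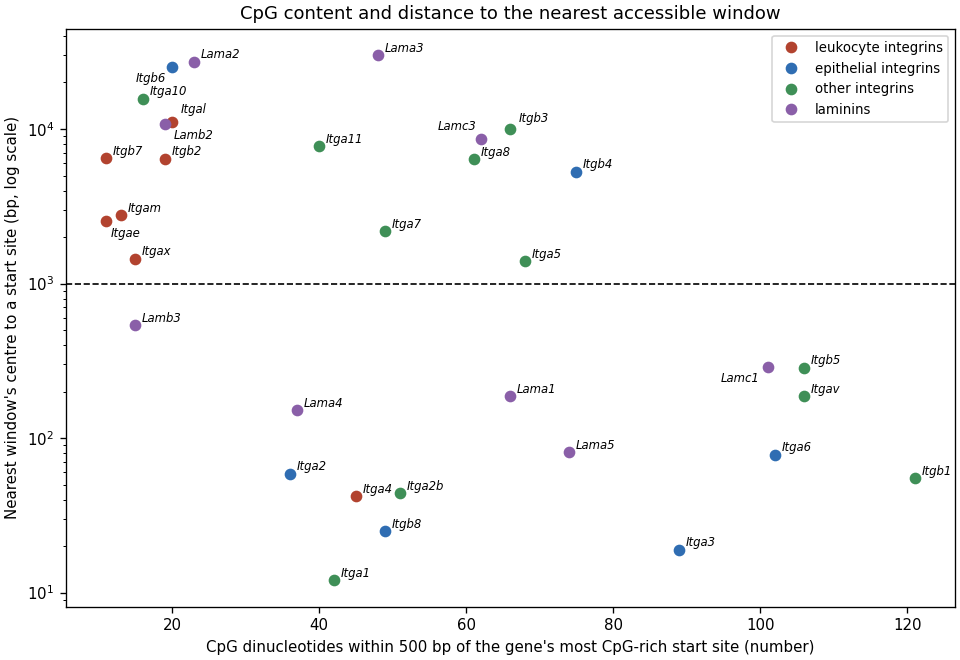
CpG count around the most CpG-rich start site (horizontal axis) against the distance from a start site to the nearest window centre (vertical axis, bp, log scale) for the 33 genes, coloured by group. The dashed line is the 1 kb limit. Of the genes with at most 31 CpG only Lamb3 lies below the line, and Itgb1 lies at the far right, at a distance of 55 bp.

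Among laminins the alpha chains Lama1, Lama4 and Lama5, the beta chain Lamb3 and the gamma chain Lamc1 had promoter windows. Lamc1, the gamma chain of most laminins, had 5 windows, all its own, with 2 at its promoter, the closer at chr1:155179955-155180454, 0.289 kb before the start site, and 3 in introns from 24.4 to 40.5 kb. Lama5, the alpha chain of most adult epithelial and vessel basement membranes, had 9 windows, with chr2:179960395-179960894 centred 81 bp before the start site. Only 2 of its 9 windows were nearest to its own start sites, and 3 were at the promoters of Adrm1 and Cables2. Lama1, an early embryonic alpha chain, had 4 windows with chr17:68046169-68046668 at 0.186 kb before the start site. Lama4, the alpha chain of vessels and muscle, had 1 window in all, at its promoter (chr10:38684919-38685418, 0.152 kb before the start site).

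Lamb3, the beta chain of the epithelial laminin that anchors hemidesmosomes, had its promoter window at chr1:195127363-195127862, centred 0.538 kb before the start site, the farthest of the 15 genes and so the nearest to the limit from inside. It was also the member with a promoter window and the fewest CpG (15). Lama3, the alpha chain of the same laminin, had 48 CpG, 3 windows within its introns and none closer than 30.0 kb to a start site. Lama2, the muscle alpha chain, is 636 kb long and had 1 window in reach of its start sites and 4 in its body. Lamb2, the beta chain of neuromuscular junction and kidney filter, had 6 windows and 0 of its own, since 4 were at the promoters of Usp19, Qars and Qrich1. Lamc3 had 7 windows, with the closest 8.64 kb away and 3 at the promoters of Fibcd1 and Nup214. Inside the gene bodies laminins had 1.12 windows per 100 kb, against 4.17 for leukocyte integrins, 3.54 for epithelial integrins, 4.40 for other integrins and 2.66 for all genes.

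Other genes of the pathway were counted from 3 lists. Of 16 adaptors and kinases that bind integrin tails or signal from them, 13 had a promoter window (81.2%, 54.4% to 96.0%). The interval lay above the background of all genes but held the 56.4% of their CpG classes. Their median number of start sites was 5, against 2 over all genes, and a window at any of them counted. Tln2, Parva and Parvb had none. Ptk2b, a focal adhesion kinase relative of blood and brain, had 16 windows within 50 kb, and the scaffold Bcar1 had 12. Of 9 basement membrane and hemidesmosome genes, 8 had a promoter window (88.9%, 51.8% to 99.7%), beside 62.3% in their CpG classes, which lay inside the interval. Nid1 had none, whereas Dst, a keratin linker of hemidesmosomes, had 13 windows and Plec, another such linker, had 10, of which 7 lay at its many promoters. Integrin ligands had 4 of 10 (40.0%, 12.2% to 73.8%). Icam2, Vcam1, Madcam1, Vtn, Spp1 and Fbln5 had none, while E-cadherin gene Cdh1, the ligand of Itgae, had 12 windows and 2 at its promoter, and Icam1 and F11r, ligands of the Itgal pair, each had 9.

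The genes of the stained proteins were checked in the same way. Epcam had 9 windows, the closest 1.25 kb past the start site, and Ptprc, which encodes CD45, had 4, the closest 16.7 kb upstream. Neither had a promoter window, and they had 31 and 13 CpG.

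On chromosomes 7, 8, 9 and X 41.5% to 51.8% of the peaks that the running numbers of the list imply were kept, against 23.6% to 26.5% on each other chromosome. Windows per Mb were higher on 7, 8 and 9 (28.1 to 37.2) but not on X (15.6). On these 4 chromosomes lie 6 members, namely Itgal, Itgam and Itgax (7), Itgb1 (8), and Itga11 and Lamb2 (9). Without these chromosomes 14 of 27 members (51.9%) had a promoter window, beside 42.8% of all genes on the remaining chromosomes. The shares were then 1 of 4 leukocyte integrins, 4 of 6 epithelial integrins, 4 of 9 other integrins and 5 of 8 laminins. The mean number of windows was 5.26 (4.43 to 6.20) for the 27 members and 3.58 for all genes on the same chromosomes. For the 4 leukocyte integrins it was 7.00 (4.65 to 10.1) and for other integrins 5.22 (3.84 to 6.94), with intervals above that mean of all genes. For epithelial integrins it was 5.17 (3.51 to 7.33) and for laminins 4.50 (3.15 to 6.23), with intervals that held it. The intervals cover counting error only. Of the other lists 8 genes lie on them, namely Ilk, Parva and Cd151 (7), Bcar1 and Cdh1 (8), and Tln2, Icam1 and Dag1 (9). Without these, 11 of 12 adaptors and kinases had a promoter window (91.7%, 61.5% to 99.8%). The interval then lay above the 56.8% of their CpG classes, a difference that was not tested. Of basement membrane and hemidesmosome genes 6 of 7 had one (85.7%, 42.1% to 99.6%), beside 60.8% in their CpG classes. Of integrin ligands 2 of 8 had one (25.0%, 3.19% to 65.1%), beside 35.7%. The part of these chromosomes in the count of Itgb1 was not tested.

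Short recognition words were searched by exact letters on both strands of the windows. AP-1, a dimer of FOS and JUN proteins, was searched as TGAGTCA or TGACTCA, which are reverse complements, PU.1, a factor of myeloid and B cells, as GAGGAAGT, and RUNX as TGTGGTT. ETS factors were searched as CCGGAAGT, TEAD as ACATTCC, GRHL, a family of epithelial factors, as AACCGGTT, SP and KLF factors as GGGCGGG, and CTCF by its core motif. The PU.1 and ETS words share their last letters but cannot match at the same place. Of the windows around members, 29 held the AP-1 word (17.0%, 11.7% to 23.4%), beside a background of 13.5% of all 50000 windows, which lay inside the interval. The share was 21.6% for leukocyte integrins, 19.4% for epithelial integrins, 11.5% for other integrins and 19.0% for laminins. Away from promoters 7 of 24 windows of leukocyte integrins held it (29.2%, 12.6% to 51.1%), an interval that held the 15.6% of all such windows. These 7 lay around Itgae, Itgb2 and the neighbours Itgam and Itgax only. The share away from promoters was 16.7% for epithelial integrins, 15.0% for other integrins and 20.0% for laminins. At promoters of any gene 1 of 13 windows around leukocyte integrins held it (7.69%, 0.195% to 36.0%), beside 7.78% of all promoter windows. The share there was 23.1% for epithelial integrins, 4.76% for other integrins and 17.6% for laminins. Each of their intervals also held the share of all promoter windows.

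The PU.1 word stood in 14 windows (8.19%, 4.55% to 13.4%) against 4.96% of all windows, and the RUNX word in 15 (8.77%) against 11.6%. By group the PU.1 share was 10.8% for leukocyte integrins, 9.68% for epithelial integrins, 9.84% for other integrins and 2.38% for laminins. The ETS word was found in 4.09% against 2.49%, the TEAD word in 7.02% against 6.35%, the GRHL word in 0.585% against 0.212% and the CTCF motif in 4.09% against 4.59%. The SP and KLF word stood in 21.1% of member windows and 17.2% of all windows, and at promoters in 45.3% against 47.2%. Promoters made up 37.4% of member windows and 26.6% of all windows. The 37430 windows within 50 kb of any protein-coding gene, with 35.0% at promoters, are a nearer background. Among them the SP and KLF share was 21.5%, the ETS share 3.14% and the PU.1 share 5.02%. Each of these background shares lay inside the interval of the member share. Matches are letters in a window and say nothing of binding.

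**Figure D5:**
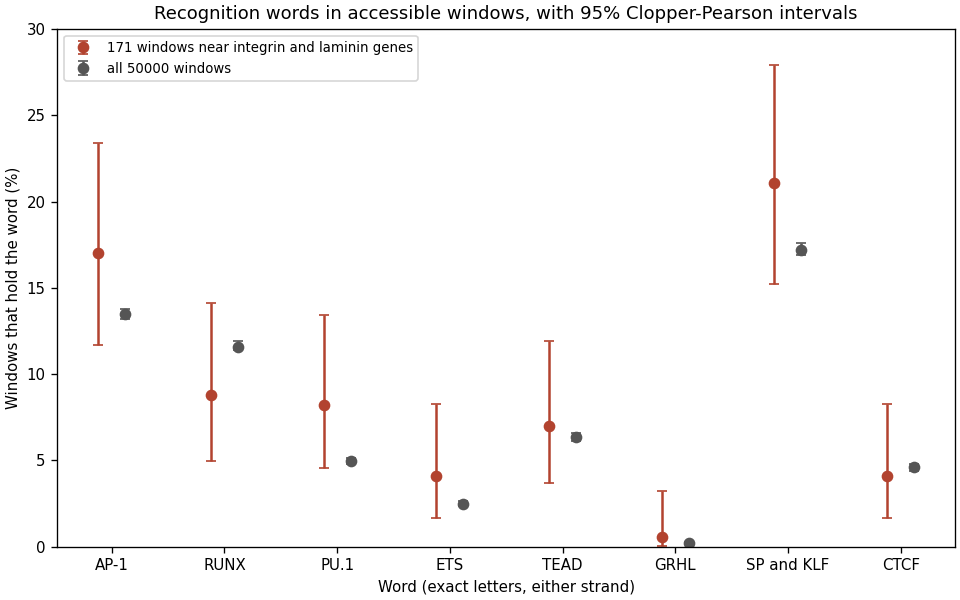
Share of windows that hold each word (vertical axis, %) for the 8 words (horizontal axis), in the windows around integrin and laminin genes (red) and in all 50000 windows (grey), with exact 95% intervals as bars. The AP-1 word stands at 17.0% and 13.5%, and every grey point lies within the red bar of its word.

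Examples of the words in windows whose nearest start site was the member's are printed below, since they show the letters behind the counts in a leukocyte, an epithelial and a laminin gene, and were chosen after their values were seen. Capitals mark the AP-1 word, and in Itgb7 the PU.1 word. In Itgae they mark the AP-1 word and then the PU.1 word on the other strand. The stretches of 61 bases are read 5′ to 3′ on the strand of the gene in mm9, at chr11:72906522-72906582 (intron of Itgae, plus strand), chr10:77007607-77007667 (intron of Itgb2, plus), chr15:102055988-102056048 (intron of Itgb7, minus), chr13:115723989-115724049 (upstream of Itga2, minus) and chr1:195127587-195127647 (promoter of Lamb3, plus).
Itgae: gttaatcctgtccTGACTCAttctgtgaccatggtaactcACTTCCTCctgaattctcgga
Itgb2: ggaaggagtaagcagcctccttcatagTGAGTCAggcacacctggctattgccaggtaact
Itgb7: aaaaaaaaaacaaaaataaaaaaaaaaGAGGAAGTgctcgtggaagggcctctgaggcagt
Itga2: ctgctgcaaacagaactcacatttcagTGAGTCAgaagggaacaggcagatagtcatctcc
Lamb3: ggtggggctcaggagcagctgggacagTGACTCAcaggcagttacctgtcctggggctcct
The Itgae stretch began 2.44 kb past the start site and that of Itga2 ended 1.74 kb before it. A second window in Itgae, 29.7 kb past its start site, also held both the AP-1 and the PU.1 word, and the promoter window of Itga4 centred 0.333 kb before its start site held the PU.1 word. The PU.1 word was not particular to leukocyte integrins. It also stood in windows around Itga3, Itga6, Itga5, Itga7, Itga11, Itgav, Itgb1 and Lamc3. Windows with the AP-1 word also stood in introns of Itgam, Itga3, Itga6, Itga8, Itgav, Itgb1, Itgb5, Lama1, Lamc1 and Lama3, though that of Lama3 was nearer to Gm17506.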

How the data were processed

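Pi-ATAC was run on single cells of 1 MMTV-PyMT tumor in 4 plates of 96 wells, all in 1 group. What was deposited are positions, recorded as unit other, of accessible windows. To make them, the authors cut adapters from the reads, aligned pairs to mm9 (Bowtie2 2.1.0), dropped duplicates (Picard 1.79), poor-quality and mitochondrial reads, and pooled the cells. Summits were called at q 0.05 with MACS2, version not given in the sources used here. Each was extended to 500 bp, and the 50000 of lowest q were retained, which leaves weaker sites out, so a gene without a window may still have been accessible in some cells.

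Windows were placed by their centre against GENCODE vM1 start sites on the NCBIM37 (mm9) genome, counting from 1. Python 3.11.15, numpy 2.4.6, scipy 1.17.1, pysam 0.24.0 and matplotlib 3.10.9 were used. Intervals are exact binomial (Clopper-Pearson) or exact Poisson at 95%. No test was run, because the pooled list has no replicate. Counting was tested on simulated data with planted windows and words.

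The members and lists were chosen with earlier results of these data known. All members were named, with the genes of each other list that had no promoter window and the 2 with most windows within 50 kb (ties included). Sequences were taken for at most 2 genes per group by most windows, and the further stretches were chosen after the values were seen. The alternatives changed the promoter distance, the reach, the transcripts, the treatment of overlapping windows, the assignment to the nearest start site, the stretch searched for the AP-1 word and the chromosomes used.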

Additional observations from a re-analysis of the deposited data

How the results depend on the processing

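The promoter shares of the 33 genes and of the 4 groups stayed inside their intervals under each alternative. The intervals are wide and the same genes were recounted, so this says little about how far the shares moved. Other integrins fell from 45.5% to 27.3% with protein-coding transcripts only. Leukocyte integrins rose from 14.3% to 28.6% at 2 kb, and laminins fell from 55.6% to 44.4% at 500 bp. Epithelial integrins stayed at 66.7% in each of these settings. At 500 bp Lamb3 lost its promoter window (14 genes left, 42.4%), while the share of all genes fell from 43.5% to 40.1%. At 2 kb Itgax and Itga5 gained one (17 genes, 51.5%, beside 47.0% of all genes). With protein-coding transcripts only, Itga2b and Itgb5 lost theirs (13 genes, 39.4%, beside 42.3% of all genes). With only the first start site of each gene, an alternative chosen after seeing the data, Itga6, Itga2b and Itgb5 lost theirs, which left 12 genes (36.4%, beside 39.4% of all genes). The mean number of windows followed the reach. Within 10 kb it was 1.76 for all members, 1.57 for leukocyte integrins, 1.83 for epithelial integrins, 2.27 for other integrins and 1.22 for laminins, against 1.36 for all genes. Within 100 kb these means were 8.48, 8.57, 7.83, 8.36 and 9.00, in the same order, against 7.35. With each window given to its nearest start site only they were 2.79, 2.29, 3.17, 3.73 and 1.78, against 1.68. In that setting the intervals of all members (2.25 to 3.42), epithelial integrins (1.91 to 4.95) and other integrins (2.67 to 5.06) lay above the mean of all genes. Those of leukocyte integrins (1.31 to 3.71) and laminins (1.02 to 2.89) held it. Within 10 kb the interval of all members was 1.33 to 2.27 and held the mean of all genes. So did those of leukocyte integrins (0.784 to 2.81), epithelial integrins (0.915 to 3.28) and laminins (0.610 to 2.19). That of other integrins (1.47 to 3.35) lay above it. Within 100 kb the interval of all members (7.52 to 9.54) lay above the mean of all genes. Those of the 4 groups held it, with 7.15 to 11.2 for laminins. The AP-1 share in the central 200 bp was 7.60%, against 6.66% of all windows. Merging overlapping windows, using protein-coding transcripts or leaving out chromosomes 7, 8, 9 and X kept the means inside their intervals. The AP-1 share stayed inside its interval without those chromosomes (16.9%) and over windows whose nearest start site was a member's (18.5%), and it was not recomputed for merged windows or protein-coding transcripts. No paired analysis was possible because the pooled list holds no value per well. Depth could not be read from the list, so the weakest site it could show is not known.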
